A study of Mus musculus with 24 samples.

Results

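Wild-type mice fed an omega-6 enriched fat were compared with wild-type mice fed a saturated fat, by RNA sequencing of inguinal white adipose tissue (iWAT), the subcutaneous fat depot of the groin. The members were chosen by label: the 4 libraries of the group with genotype WT on the diet n6 and the 4 libraries of the group with genotype WT on the diet SFA, 8 of the 24 libraries of the series. All 8 came from male mice aged 18 to 22 weeks on a high-fat diet with 60% of its calories from fat, so there is no lean or chow-fed control. The diets differed in the kind of fat, and neither its make-up nor the time on diet is given in the sources used here. The other 16 libraries were WT on an omega-3 enriched fat of the same share of calories (n3) and AdL3KO mice, here KO, on each of the 3 diets, with 4 libraries a group. AdL3KO stands for a deletion of LPCAT3 whose driver is not given in the sources used here, and Lpcat3 transcripts were still present in the libraries labelled KO. The labels do not say that each library came from a separate animal, so p-values measure only the spread between these libraries, which may in part be technical.

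Fat cells make fatty acids from acetyl-CoA by de novo lipogenesis, and desaturases turn the saturated products into monounsaturated ones. The lipogenic and sterol genes are activated by SREBP transcription factors, which INSIG proteins hold in the endoplasmic reticulum when sterols are plentiful. Dietary polyunsaturated fatty acids are known to lower SREBP-1 activity, and linoleic acid, the main omega-6 fatty acid of seed oils, is the precursor of arachidonic acid and its eicosanoids. LPCAT3, the enzyme targeted in KO, places polyunsaturated fatty acids into phospholipids.

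The 8 libraries held between 46.25 and 55.44 M estimated counts each, and 15259 genes passed the filter on low counts and were tested. The tissue label was checked on marker genes. The 10 adipocyte markers summed to between 26490 and 28260 CPM (estimated counts scaled to library size) on SFA and to between 22900 and 24970 on n6, and no adipocyte marker was at 0. Of 16 markers of mammary and other gland epithelium 10 were tested, and they summed to 1.462 to 6.274 CPM on SFA and 1.799 to 4.101 CPM on n6. The milk protein genes Csn2 and Wap of that list were at 0 in all 8 libraries. Of 9 mast cell and eosinophil markers 8 were tested, and they summed to 66.51 to 82.45 CPM on SFA and 71.44 to 82.31 CPM on n6. The eosinophil marker Epx of that list was at 0 in all 8 libraries. SFA replicate 3 stood apart in the summed level of 11 B cell markers, at 55.77 CPM against 7.944 to 12 in the other 3 SFA libraries and 7.178 to 8.619 on n6. In n6 replicate 4 the 17 macrophage markers summed to 1813 CPM, within the SFA range of 1697 to 1994 CPM, while the other 3 n6 libraries lay between 2415 and 2699 CPM.

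Omega-6 fat was accompanied by lower mRNA of fatty acid synthesis, sterol synthesis, fatty acid oxidation and the respiratory chain, and by higher mRNA of cell cycle genes, of part of the macrophage markers and of a few inflammatory genes. At an adjusted p under 0.05 (edgeR's quasi-likelihood test with Benjamini-Hochberg adjustment over all tested genes), 3776 genes (24.7% of those tested) differed. Of these 1777 (11.6%) were higher and 1999 (13.1%) lower on n6, and 47.1% of the calls were therefore upward. The shares of 11.6% and 13.1% are the background for each count of list members given below on estimated counts. Most differences were small: 145 genes differed by at least 2-fold, 78 of them higher and 67 lower, and the median log2 fold change of all tested genes was 0.002. The 4 values of one diet lay wholly above or below the 4 values of the other in 3798 genes (24.9%).

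The balance of rises and falls depends on the unit. On the deposited TPM values (abundances scaled for transcript length, log2 of TPM + 1, limma), the median of all genes shifted upward by 0.148 and 91.2% of 6020 calls were upward, 5493 higher and 527 lower. These calls were made among 14401 genes tested on TPM. They are the background for each list count given below in TPM units. The share of counts in the 100 most abundant genes was 31.1 to 32.7% on SFA and 27.1 to 28.1% on n6, and Scd1 alone took 5.13 to 5.52% on SFA and 2.03 to 2.65% on n6. Leaving out SFA replicate 4 lowered the number of calls to 2378, and leaving out SFA replicate 1 raised the number of 2-fold calls to 233.

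**Figure D1:**
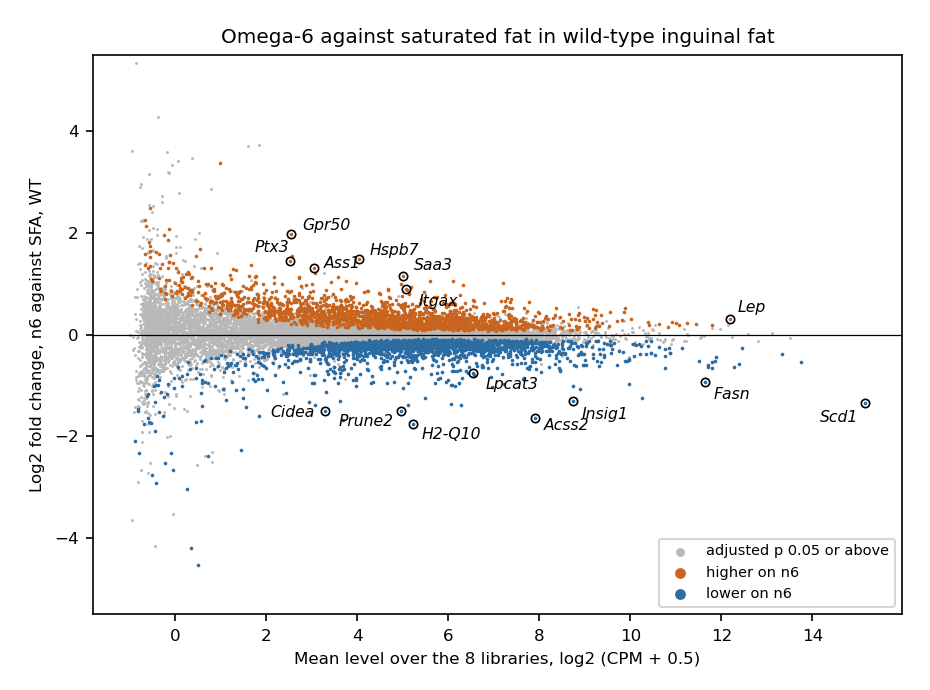
Log2 fold change of n6 against SFA in WT for each tested gene (vertical axis) against its mean level over the 8 libraries, log2 of CPM + 0.5 (horizontal axis), with genes higher on n6 in orange, lower in blue and not called in grey. The coloured points, 1777 above 0 and 1999 below, mostly lie within 2-fold of 0, and 10 genes fall outside the plotted range of fold changes.

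The largest falls and rises were taken among called genes whose log2 CPM averaged 1 or more and whose groups did not overlap. Separation of the 2 groups was thus a condition of their choice. The falls included H2-Q10, a class I-like histocompatibility gene (chr17:35470089-35474563, plus strand, GRCm38), which was at 49.9, 60.2, 64.2 and 54.4 CPM in SFA replicates 1 to 4 and at 15.1, 16.3, 13.7 and 22.5 CPM in n6 replicates 1 to 4 (log2 fold change -1.76, SE 0.126, adjusted p = 4.29e-09). Every n6 library lay far below every SFA library, although H2-Q10 belongs to a family of near-identical genes among which reads may be split. Acss2, Prune2, Hephl1, Parm1, Ncan and Golga7b fell as well, with log2 fold changes of -1.63, -1.51, -1.68, -1.38, -1.37 and -1.31 and adjusted p between 9.22e-12 and 1.1e-06 (edgeR). Cxadr, a cell adhesion receptor, fell by 1.43 on the log2 scale from a low level, a mean of 3.52 CPM to 1.31 CPM.

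Among the rises, Gpr50, an orphan receptor of the melatonin receptor family (chrX:71663667-71669257, plus strand, GRCm38), was at 1.78, 1.6, 2.84 and 2.44 CPM on SFA and at 13.2, 6.11, 8.71 and 6.27 CPM on n6 (log2 fold change 1.99, SE 0.234, adjusted p = 3.67e-06). The n6 libraries were all above the SFA libraries, with n6 replicate 1 the highest. Ass1, which encodes argininosuccinate synthase of arginine synthesis (chr2:31470207-31520672, plus strand, GRCm38), was nearly level across SFA libraries at 4.49, 4.33, 4.44 and 4.54 CPM and stood at 12.2, 10.1, 12.2 and 9.62 CPM on n6 (log2 fold change 1.31, SE 0.121, adjusted p = 9.31e-08). Hspb7, a small heat shock protein gene, rose from 10.6, 5.49, 8.33 and 9.35 CPM to 29.4, 34.1, 18.4 and 12.7 CPM (log2 fold change 1.49, SE 0.251, adjusted p = 0.000309). The 4 n6 values of Hspb7 spread widely, with replicate 4 the lowest. Hif3a, F10 (coagulation factor X), Gabrr2 (a GABA receptor subunit), Optc, Tm4sf19 and Nrip2 rose by 1.13 to 1.55 on the log2 scale.

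Of the 20 genes of de novo lipogenesis, 17 were lower on n6 and none was higher, with a median log2 fold change of -0.68 against 0.002 over all tested genes. In TPM units 15 were lower and 1 higher, with a median of -0.45. All 17 had n6 values wholly below the SFA values, while over all tested genes, called or not, 24.9% had groups without overlap. Calls and separation rest on the same values and are not separate evidence. Acss2, which makes acetyl-CoA from acetate in the cytosol (chr2:155517948-155585724, plus strand, GRCm38), was at 287, 377, 411 and 377 CPM on SFA and 119, 114, 125 and 111 CPM on n6 (log2 fold change -1.63, SE 0.0813, adjusted p = 9.22e-12). The n6 libraries were tight and the lowest SFA library, replicate 1, was still more than 2-fold above the highest of them. Scd1, the stearoyl-CoA desaturase that makes oleate and palmitoleate (chr19:44394455-44407879, minus strand, GRCm38), was at 51890, 54560, 50190 and 54370 CPM on SFA and 18600, 24600, 18300 and 21030 CPM on n6 (log2 fold change -1.35, SE 0.0784, adjusted p = 5.5e-11). Its paralog Scd2 was at 1495, 1723, 1924 and 1697 CPM on SFA and 739.9, 722, 746 and 678 CPM on n6 (log2 fold change -1.25, SE 0.0671, adjusted p = 2.42e-11). Neither desaturase had overlapping groups. Elovl6, which lengthens palmitate to stearate, fell from 55.1, 67.8, 66.5 and 59.9 CPM to 24.7, 27.3, 26.5 and 27.3 CPM (log2 fold change -1.24, SE 0.0698, adjusted p = 4.5e-11).

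Each step from citrate to palmitate was lower. The citrate carrier Slc25a1 had a log2 fold change of -1.01 (SE 0.0805, adjusted p = 1.08e-08), ATP citrate lyase Acly of -0.70 (SE 0.0625, adjusted p = 5.41e-08) and the acetyl-CoA carboxylases Acaca and Acacb of -0.72 and -1.04 (adjusted p = 1.42e-07 and 1.25e-08). Fasn, the fatty acid synthase, was at 3571, 4052, 4769 and 4384 CPM on SFA and at 2138, 2131, 2202 and 2305 CPM on n6 (log2 fold change -0.94, SE 0.0729, adjusted p = 7.09e-09). Me1, the malic enzyme that supplies NADPH, fell by 0.97 on the log2 scale (adjusted p = 2.47e-09). All of these had their lowest SFA value in replicate 1 except Acacb, whose lowest was in replicate 4, and the groups stayed apart. Srebf1, which encodes SREBP-1, fell by 0.53 on the log2 scale (adjusted p = 1.37e-05). The 3 members not called included Mlxipl, which encodes the carbohydrate-responsive factor ChREBP, with a log2 fold change of 0.17 and adjusted p = 0.225, and Thrsp, a lipogenic response gene, with -0.18 and adjusted p = 0.322. In TPM units with a filter on low values Mlxipl was called higher (0.33).

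The adipocyte markers moved in the same direction to a smaller extent: 5 of 10 were lower on n6, 1 was higher, and their median log2 fold change was -0.22. Adipoq, the gene of adiponectin and a defining marker of fat cells, had a log2 fold change of -0.18 (adjusted p = 0.0982), and was called when the 8 libraries compared were fitted alone (adjusted p = 0.0329). The part of cell makeup in the lipogenic result was not tested, and in bulk tissue fewer fat cells and less RNA per fat cell cannot be told apart.

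**Figure D2:**
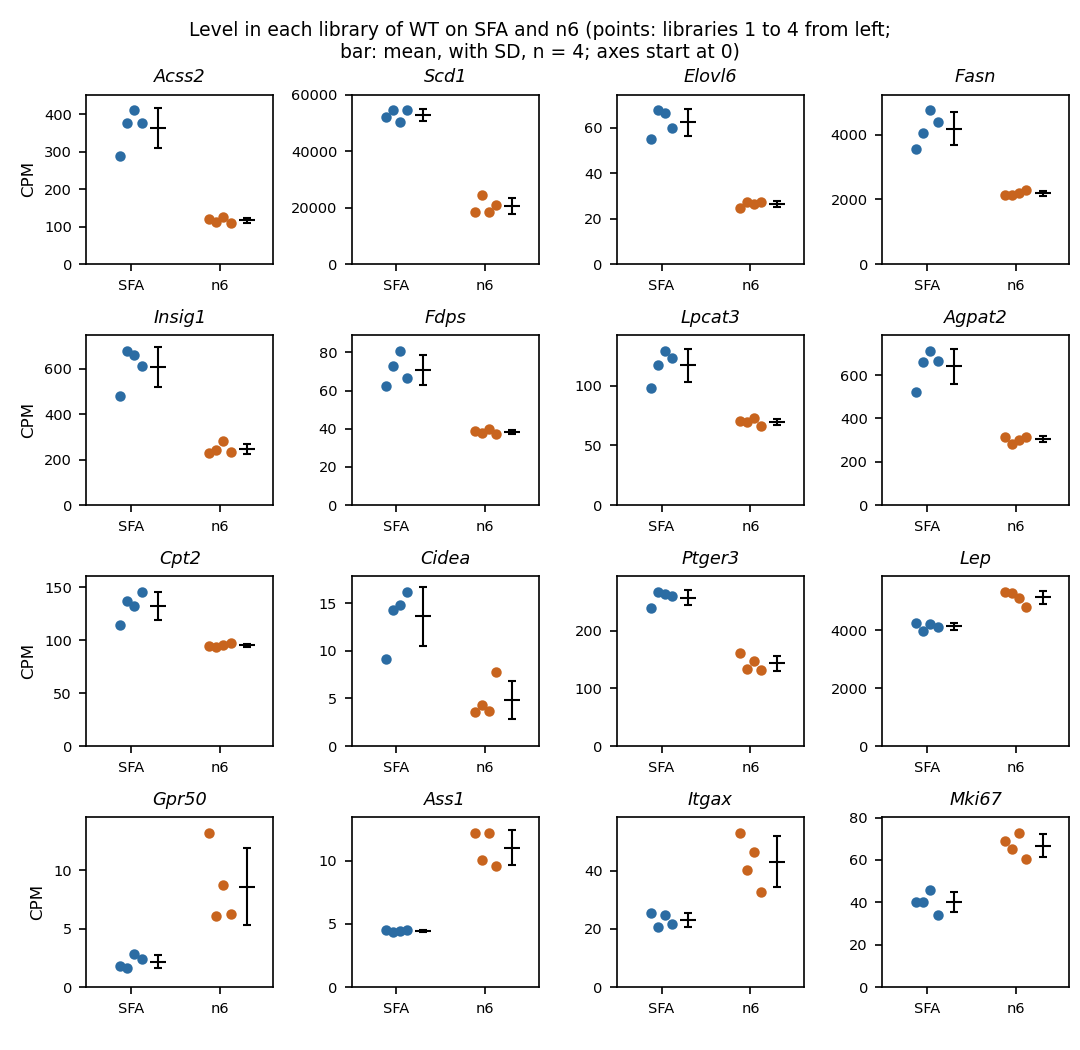
CPM in each WT library on SFA and n6 (points, replicates 1 to 4 from left) with the mean and SD (bar, n = 4) for single genes, each axis starting at 0. In Acss2, Scd1, Elovl6, Fasn, Insig1 and Fdps all 4 n6 points lie below all 4 SFA points, and in Lep, Gpr50, Ass1, Itgax and Mki67 they lie above.

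Of the 25 genes of cholesterol synthesis and uptake, 21 were lower on n6 and none higher, with a median log2 fold change of -0.70. In TPM units 16 of 24 were lower and none higher, with a median of -0.45. Insig1, the sterol-regulated anchor of SREBP (chr5:28071363-28078662, plus strand, GRCm38), was at 479, 679, 659 and 614 CPM on SFA and 228, 244, 281 and 235 CPM on n6 (log2 fold change -1.30, SE 0.086, adjusted p = 8.62e-10), and the groups lay well apart. Cyp51, the lanosterol demethylase, was at 60.5, 70.3, 78.3 and 64 CPM on SFA and 37.8, 34, 39.2 and 30.5 CPM on n6 (log2 fold change -0.95, SE 0.0813, adjusted p = 4.54e-08). Nsdhl, which acts after it in the pathway, was at 69.3, 83.5, 92.2 and 83 CPM on SFA and 45.1, 43.1, 47.7 and 40.6 CPM on n6 (log2 fold change -0.89, SE 0.0658, adjusted p = 3.15e-09). Both had SFA replicate 1 as the lowest SFA library and no overlap. Fdps (farnesyl diphosphate synthase), Lss (lanosterol synthase) and Sqle (squalene epoxidase) had log2 fold changes of -0.88, -0.85 and -0.70, and Hmgcs1, the cytosolic HMG-CoA synthase, of -0.53, all with adjusted p of 5.67e-06 or less and no overlap. Srebf2, which encodes SREBP-2, had a log2 fold change of 0.04 (adjusted p = 0.517), and -0.04 on counts rebuilt from TPM with a fixed length per gene.

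Promoter sequence was examined because the lipogenic and sterol genes fell together. The windows are RefSeq sequence (GRCm38.p6) from 250 bases before to 50 bases after each RefSeq start of a gene. A gene can have several windows, and it was counted if any of them held the letters. Of the members tested, 17 of 25 sterol genes and 18 of 20 lipogenic genes had a window. The CCAAT box, the letters CCAAT on either strand, is the site of the factor NF-Y that acts beside SREBP. It occurred in 16 of 17 sterol genes (94.1%) and in 14 of 18 lipogenic genes (77.8%), against 42.6% of the 11504 tested genes with a window. Among all tested genes lower on n6 the share was 44.5%, and among those higher 43.6%. The sterol regulatory element core TCACNCCAC, on either strand, was found in 1 of the 17 (Hmgcs1) and 2 of the 18 (Mlxipl and Acsl1), against 1.38% of tested genes. A match is a description of letters, not of a bound site. The 250 bases before the start are shown for the 3 sterol and 2 lipogenic genes with the largest falls among those with a single window, 5′ to 3′ on the gene's strand, with the box or its reverse complement ATTGG in capitals. They are Insig1 (chr5:28071162-28071411, plus strand), Cyp51 (chr5:4104698-4104947, minus strand), Nsdhl (chrX:72918271-72918520, plus strand), Acss2 (chr2:155517793-155518042, plus strand) and Elovl6 (chr3:129532136-129532385, plus strand).
Insig1: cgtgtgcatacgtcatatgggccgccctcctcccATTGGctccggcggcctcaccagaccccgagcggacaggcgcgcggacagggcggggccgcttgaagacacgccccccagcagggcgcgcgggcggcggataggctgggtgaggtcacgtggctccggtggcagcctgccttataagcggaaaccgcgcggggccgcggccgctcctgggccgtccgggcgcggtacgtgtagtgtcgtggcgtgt
Cyp51: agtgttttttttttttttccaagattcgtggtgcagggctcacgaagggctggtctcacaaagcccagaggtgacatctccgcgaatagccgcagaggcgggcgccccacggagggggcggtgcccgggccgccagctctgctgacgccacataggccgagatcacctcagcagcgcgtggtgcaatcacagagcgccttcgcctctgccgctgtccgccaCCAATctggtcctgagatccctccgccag
Nsdhl: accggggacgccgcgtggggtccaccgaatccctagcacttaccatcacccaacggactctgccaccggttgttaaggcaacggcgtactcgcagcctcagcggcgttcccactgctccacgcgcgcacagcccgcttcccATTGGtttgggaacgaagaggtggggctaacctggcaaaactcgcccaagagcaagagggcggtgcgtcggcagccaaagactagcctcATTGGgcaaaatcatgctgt
Acss2: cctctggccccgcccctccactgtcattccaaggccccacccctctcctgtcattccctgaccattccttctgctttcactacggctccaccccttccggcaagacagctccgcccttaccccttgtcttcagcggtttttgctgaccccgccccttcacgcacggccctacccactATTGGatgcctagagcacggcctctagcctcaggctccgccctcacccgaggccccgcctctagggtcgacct
Elovl6: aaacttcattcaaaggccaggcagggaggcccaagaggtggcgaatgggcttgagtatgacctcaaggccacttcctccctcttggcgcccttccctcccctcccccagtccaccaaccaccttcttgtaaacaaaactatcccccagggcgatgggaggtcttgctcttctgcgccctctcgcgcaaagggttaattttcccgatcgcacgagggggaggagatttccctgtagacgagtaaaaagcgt
Nsdhl held 2 boxes, 16 and 105 bases before the start, Cyp51 held 1 at 25 bases, Acss2 1 at 69 bases and Insig1 1 at 212 bases, while Elovl6 held none here, although its log2 fold change was -1.24. The boxes of Nsdhl, Acss2 and Insig1 are on the reverse strand and that of Cyp51 is on the forward strand. Distances are to the RefSeq start. For Acss2 and Insig1 that start lies inside the gene span printed above, which is from GENCODE. The box of Acss2 also lies inside its GENCODE span, so it is not before the GENCODE start.

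Genes that handle polyunsaturated fatty acids moved less evenly. Of 9 genes of their elongation and desaturation, 4 were lower and none higher on n6, with a median log2 fold change of -0.15 (in TPM units 2 were lower and the median was -0.01). Tecr and Hsd17b12, which encode enzymes of the elongation cycle, fell by 0.78 and 0.67 on the log2 scale (adjusted p = 2.21e-09 and 4.61e-07), and their groups did not overlap. The delta-5 desaturase Fads1 was at 56.5, 49.1, 46.3 and 44.6 CPM on SFA and 38.4, 45.1, 38.5 and 39.6 CPM on n6 (log2 fold change -0.28, SE 0.0807, adjusted p = 0.0141), with n6 replicate 2 inside the SFA range. The call on Fads1 was lost without SFA replicate 1 (log2 fold change -0.21) and in TPM units (-0.10). The delta-6 desaturase Fads2, the step that opens arachidonic acid synthesis, was at 12.5, 11.5, 11.3 and 10.5 CPM on SFA and 9.1, 9.52, 10.8 and 11.9 CPM on n6, with a log2 fold change of -0.15, adjusted p = 0.231 and overlapping groups.

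Lpcat3 itself was lower on n6 in WT. The gene (chr6:124663027-124704418, plus strand, GRCm38) was at 97.8, 118, 129 and 123 CPM on SFA and 69.9, 69.3, 72.9 and 66 CPM on n6 (log2 fold change -0.75, SE 0.0605, adjusted p = 1.25e-08). No library overlapped, and SFA replicate 1 was again the lowest of its group. Of 28 genes of phospholipid remodelling and synthesis, 12 were lower and 3 higher, with a median of -0.10 that turned to 0.07 in TPM units, where 9 were higher and 4 lower. On counts 13.1% of all tested genes were lower and 11.6% higher, so the rises were near the general share. Pcyt2, of the phosphatidylethanolamine branch, fell by 0.51 on the log2 scale (adjusted p = 2.53e-07). The secreted phospholipases moved in opposite directions. Pla2g2e was at 11, 15.3, 13.4 and 11.8 CPM on SFA and 6.34, 6.29, 6.55 and 4.45 CPM on n6 (log2 fold change -1.12, SE 0.152, adjusted p = 3.06e-05), and Pla2g5 was at 4.76, 5, 3.29 and 4.87 CPM on SFA and 7.29, 9.18, 7.08 and 7.29 CPM on n6 (log2 fold change 0.78, SE 0.144, adjusted p = 0.000507). In both the groups stayed apart.

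Lpcat3 is also a known target of the sterol sensor LXR. Among 12 LXR targets 6 were lower and 2 higher on n6, with a median of -0.20, while in TPM units 3 were lower and 3 higher, with a median of -0.02. On counts 13.1% of all tested genes were lower and 11.6% higher. Abca1, the cholesterol exporter and a classical target, had a log2 fold change of 0.09 (adjusted p = 0.0999), and was called higher in TPM units (0.28). Mylip, a ubiquitin ligase, rose by 0.33 on the log2 scale (adjusted p = 0.00859). Nr1h3, which encodes LXR alpha, fell by 0.22 (adjusted p = 0.00177), a call not made in TPM units, where its log2 fold change was -0.04. The fallen members were Lpcat3, Nr1h3, Apoe, Pltp and, from the lipogenic list, Scd1 and Srebf1. Abcg1, another cholesterol exporter, was the other rise, and the number of rises was 1 without SFA replicate 2 or 4 or without n6 replicate 1, 2 or 3.

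Triglyceride synthesis showed 7 of 17 genes lower and 3 higher on n6, with a median of -0.12 that was 0.03 in TPM units. The shares on counts over all tested genes were 13.1% lower and 11.6% higher. Agpat2, the main acyltransferase of fat cells at the phosphatidic acid step, was at 524, 661, 711 and 664 CPM on SFA and 314, 284, 302 and 316 CPM on n6 (log2 fold change -1.07, SE 0.0761, adjusted p = 2.21e-09). Gpat3 and Dgat1, at the opening and final steps, fell by 0.72 and 0.44 on the log2 scale (adjusted p = 8.34e-06 and 1.18e-05). All 3 had non-overlapping groups. The 3 rises (Lpin3, Mogat2 and Agpat4) were called on small margins, and 1 or no member was called higher when any SFA library other than replicate 1, or n6 replicate 1 or 3, was left out, or when the 8 libraries compared were fitted alone.

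Of 22 genes of the lipid droplet and lipolysis, 15 were lower on n6 and none higher, with a median of -0.28 (in TPM units 2 were called higher, and 8 lower without a filter on low values). Cidea, a droplet protein of brown-like fat cells, was at 9.11, 14.3, 14.8 and 16.2 CPM on SFA and 3.58, 4.28, 3.7 and 7.78 CPM on n6 (log2 fold change -1.50, SE 0.215, adjusted p = 6.45e-05). The n6 libraries lay below the SFA libraries, with n6 replicate 4 closest to them. Adrb3, the adrenergic receptor that starts lipolysis, was at 184, 204, 176 and 221 CPM on SFA and 93.3, 95.9, 96.5 and 115 CPM on n6 (log2 fold change -0.97, SE 0.126, adjusted p = 1.78e-05). The droplet coats Plin5 and Plin1 fell by 0.89 and 0.36 on the log2 scale, and Pnpla2, the triglyceride lipase, by 0.36 (adjusted p = 9.81e-05, 0.000509 and 0.00593). In unfiltered TPM units the call on Pnpla2 was lost (-0.18). Of 16 genes of fatty acid uptake and binding 7 were lower and none higher, with a median of -0.18 (in TPM units the median was 0.01 and 7 were called higher). Acsl3, an acyl-CoA synthetase of droplets and the endoplasmic reticulum, fell from 21.6, 26.2, 28.7 and 25.5 CPM to 12.9, 13.5, 13.2 and 12.9 CPM (log2 fold change -0.96, SE 0.0857, adjusted p = 8.3e-08). The transporter Slc27a1 fell by 0.61 (adjusted p = 0.000227).

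Genes of fatty acid burning fell with those of fatty acid making. Of 28 beta-oxidation genes, 25 were lower on n6 and none higher, with a median log2 fold change of -0.32. Cpt2, the inner-membrane transferase that remakes acyl-CoA from acylcarnitines, was at 115, 137, 133 and 146 CPM on SFA and 94.9, 94, 95.2 and 97.6 CPM on n6 (log2 fold change -0.47, SE 0.0591, adjusted p = 7.22e-06). Slc25a20, which carries acylcarnitines into the matrix, fell by 0.44 on the log2 scale (adjusted p = 8.53e-06). Cpt1b, the muscle form of the outer-membrane transferase, fell by 0.63 from a mean of 13.1 CPM (adjusted p = 0.00429), a call lost in unfiltered TPM units (-0.36). None of these 3 had overlapping groups.

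All 43 tested nuclear genes of oxidative phosphorylation were called lower on n6, by similar small amounts, with a median log2 fold change of -0.27. The complex I subunit Ndufs4 was at 55.8, 62.1, 61.3 and 61.6 CPM on SFA and 43, 48.6, 45.9 and 48.5 CPM on n6 (log2 fold change -0.37, SE 0.0589, adjusted p = 0.000124). Of the tricarboxylic acid cycle and its entry steps 16 of 19 were lower and none higher, with a median of -0.25, among them citrate synthase Cs at -0.39 and pyruvate carboxylase Pcx at -0.49 (adjusted p = 2.18e-05 and 3.22e-06). Of the 13 tested mitochondrially encoded genes 11 were lower, with a median of -0.57. mt-Nd2 was at 3647, 4432, 4496 and 4761 CPM on SFA and 2579, 2750, 2828 and 2847 CPM on n6 (log2 fold change -0.66, SE 0.0687, adjusted p = 6.12e-07). mt-Co1 fell by 0.54 (adjusted p = 7.01e-05).

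These mitochondrial falls depend on scale in number and size, while the list medians stayed below 0. In TPM units 22 of 42 oxidative phosphorylation genes and 14 of 28 beta-oxidation genes were called lower. Their medians were -0.10 and -0.15, or -0.25 and -0.30 relative to the median of all genes. Of the 19 tricarboxylic acid cycle genes 7 were lower in TPM units, with a median of -0.08, or -0.23 relative to the median of all genes. SFA replicate 1 was the lowest SFA library for 43 of the 43 called oxidative phosphorylation genes, for 24 of the 25 beta-oxidation genes, and for 11 of the 11 mitochondrially encoded genes, so it was the SFA library nearest to n6. Leaving out each library in turn gave 41 to 43 and 22 to 25 genes lower for the nuclear lists. The adipocyte markers, with 5 of 10 lower, moved the same way, and their part in these falls was not tested.

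Thermogenic genes were lower in 11 of 20 cases and higher in 2, with a median of -0.38 (in TPM units 7 of 19 were lower). On counts 13.1% of all tested genes were lower and 11.6% higher, so the rises were near the general share. The 2 rises were 1 without SFA replicate 1, 2 or 3 or n6 replicate 1 or 3. Cox8b, a cytochrome oxidase subunit of brown and muscle mitochondria, was at 7.45, 13.5, 9.49 and 15.3 CPM on SFA and 4.21, 4, 4.12 and 5.12 CPM on n6 (log2 fold change -1.39, SE 0.184, adjusted p = 2.3e-05). Ucp1, the uncoupling protein of brown fat cells, was near the limit of detection at 0.159, 0.451, 0.766 and 0.64 CPM on SFA and 0.0179, 0.119, 0.0363 and 0.512 CPM on n6, with a log2 fold change of -1.57 and adjusted p = 0.0523. Its groups overlapped through n6 replicate 4, and without that library the log2 fold change was -3.05 and was called. Of 22 PPAR targets, 9 were lower and none higher, with a median of -0.29 (in TPM units 5 were lower and 4 higher). Ucp3, a mitochondrial carrier among them, fell by 0.73 on the log2 scale (adjusted p = 1.1e-05). Angptl4 and Pdk4, which respond to fatty acids through PPAR in many tissues, had log2 fold changes of 0.05 and -0.29 (adjusted p = 0.655 and 0.163), and Angptl4 was called higher in TPM units (0.22).

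**Figure D3:**
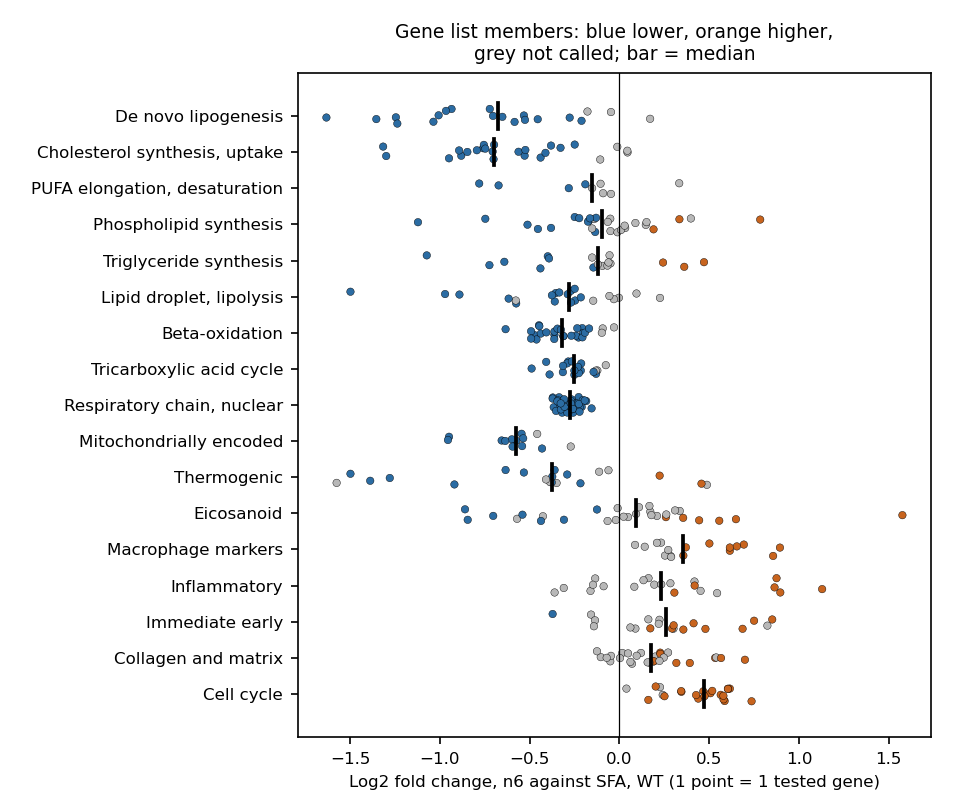
Log2 fold change of n6 against SFA in WT for each tested gene (point) of each gene list, with called members in blue (lower) or orange (higher), other members in grey and the list median as a bar. The lipogenic and cholesterol lists centre at -0.68 and -0.70, the oxidative phosphorylation list lies in a narrow band about -0.27, and the cell cycle list lies to the right at 0.47.

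Omega-6 fatty acids feed eicosanoid synthesis, and 29 genes of that pathway and its receptors were examined. They split, with 7 lower, 6 higher and a median of 0.09 (in TPM units 5 of 26 were lower and 12 higher, with a median of 0.25). On counts 13.1% of all tested genes were lower and 11.6% higher. Of the 7 falls in the list 2 were prostaglandin receptors. Ptger3, the EP3 receptor for prostaglandin E2 that restrains lipolysis in fat cells, was at 239, 268, 264 and 260.1 CPM on SFA and 161, 134, 147 and 132 CPM on n6 (log2 fold change -0.84, SE 0.0622, adjusted p = 3.15e-09). Ptgfr, the receptor for prostaglandin F2 alpha, was at 12.4, 16.3, 11.5 and 15.1 CPM on SFA and 7.01, 7.64, 8.31 and 7.49 CPM on n6 (log2 fold change -0.86, SE 0.103, adjusted p = 4.38e-06). Both were lower in every n6 library. Ffar4, a receptor for long-chain fatty acids including omega-3 ones, fell by 0.70 on the log2 scale (adjusted p = 0.000839). Hpgd, which breaks prostaglandins down, fell by 0.44 on the log2 scale, and Ephx2, the soluble hydrolase of epoxy fatty acids, by 0.54 (adjusted p = 4.09e-05 and 0.000961).

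Ephx1, the microsomal epoxide hydrolase, rose by 0.36 on the log2 scale (adjusted p = 0.00157). Tbxas1, the thromboxane synthase, was at 18, 15.2, 15 and 14 CPM on SFA and 26.5, 22.4, 26.3 and 16.3 CPM on n6 (log2 fold change 0.56, SE 0.133, adjusted p = 0.00468), with n6 replicate 4 inside the SFA range, as for several macrophage markers, and its log2 fold change was 0.68 without that library. Ptger2, the EP2 receptor, rose by 0.44 (adjusted p = 0.00801). Alox15, a lipoxygenase, had the largest rise of the list from a level near the limit of detection, 0.405, 0.226, 0.131 and 0.0825 CPM on SFA and 1.06, 0.628, 0.544 and 0.335 CPM on n6 (log2 fold change 1.58, SE 0.459, adjusted p = 0.0152), with overlap, and the call was lost without SFA replicate 3 or 4 or n6 replicate 1 (log2 fold change 1.22 to 1.40). Of the cyclooxygenases, Ptgs1 rose by 0.26 (adjusted p = 0.0276), a call lost when SFA replicate 2, 3 or 4 or n6 replicate 2 or 3 was left out (log2 fold change 0.22 to 0.26). Ptgs2, the inducible form, was at 0.986, 1.07, 0.952 and 0.537 CPM on SFA and 0.842, 0.967, 0.962 and 0.906 CPM on n6, with a log2 fold change of 0.05 (adjusted p = 0.904) and -0.13 without SFA replicate 4. The number of rises in the list was 3 without SFA replicate 3 or without SFA replicate 4.

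Among 17 macrophage markers, 9 were higher on n6 and none lower, with a median log2 fold change of 0.36. Itgax (CD11c), carried by macrophages of obese fat, was at 25.6, 20.6, 24.8 and 21.7 CPM on SFA and 53.1, 40.2, 46.5 and 32.6 CPM on n6 (log2 fold change 0.89, SE 0.142, adjusted p = 0.000169). All n6 values lay above the SFA values, with replicate 4 lowest. Itgam (CD11b) was at 60.4, 47.4, 52.6 and 45.2 CPM on SFA and 92, 79.4, 85.3 and 58.3 CPM on n6 (log2 fold change 0.61, SE 0.132, adjusted p = 0.00214), and n6 replicate 4 fell within the SFA range (0.73 without it). Cd9 and the protease Ctss rose by 0.37 and 0.65 on the log2 scale (adjusted p = 0.000267 and 0.00326). The general marker Adgre1 (F4/80) rose by 0.50 (adjusted p = 0.024), a call lost without SFA replicate 2 or 4 or without n6 replicate 1 or 3 (log2 fold change 0.40 to 0.47), and when the 8 libraries compared were fitted alone (adjusted p = 0.0562). Mrc1, the mannose receptor of resident macrophages, had a log2 fold change of 0.25 (adjusted p = 0.212), and of 0.38 without n6 replicate 4, where it was called (adjusted p = 0.0465). For all 9 called markers n6 replicate 4 was the lowest n6 library, 4 of the 9 had no overlap, and 13 of 17 were called without that library. Over all tested genes 24.9% had no overlap. In TPM units 15 of the 17 markers were called higher, as were 5493 of all 14401 genes tested on TPM.

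Of 21 inflammatory and NF-kB genes 6 were higher on n6 and none lower, with a median of 0.23 (10 in TPM units). Over all tested genes 11.6% were called higher and 24.7% in either direction on counts, and 5493 of 14401 were higher in TPM units. Ccl2, the monocyte attractant, was at 6.85, 5.51, 7.71 and 6.6 CPM on SFA and 11.5, 10.8, 14.1 and 12.5 CPM on n6 (log2 fold change 0.88, SE 0.124, adjusted p = 3.61e-05), with no overlap. Saa3, from the adipokine list, an acute-phase protein of inflamed fat, was at 17.8, 19.5, 17.5 and 23.8 CPM on SFA and 49.2, 50.1, 50.8 and 24.1 CPM on n6 (log2 fold change 1.15, SE 0.185, adjusted p = 0.000192). The n6 replicates 1 to 3 were at about the same level and replicate 4 was barely above the highest SFA library, and without it the log2 fold change was 1.34. Ptx3, a soluble pattern receptor that belongs to no list and is among the largest rises, went from 3.86, 1.96, 2.82 and 2.58 CPM to 8.17, 9.16, 7.88 and 5.64 CPM (log2 fold change 1.46, SE 0.205, adjusted p = 3.32e-05). Il1rn, the interleukin-1 receptor antagonist, rose by 0.90 on the log2 scale (adjusted p = 0.00101). Spp1 (osteopontin), also a product of lipid-laden macrophages, rose by 0.86 (adjusted p = 0.000988). Tnf was near the limit of detection with a log2 fold change of -0.16 (adjusted p = 0.636), which was between 0.02 and 0.05 in TPM units and 0.01 without SFA replicate 1. The 10 MHC class II genes gave 1 call higher on n6, none without SFA replicate 3 or 4 or n6 replicate 1 or 3, 3 without n6 replicate 4 and 6 in TPM units. The number of inflammatory calls was 4 without SFA replicate 2 or 4.

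Markers of other cell types were examined in the same way. Endothelial markers were higher in 4 of 10 cases with a median of 0.35, and pericyte and smooth muscle markers in 4 of 8 with a median of 0.37. When the 8 libraries compared were fitted alone these counts were 9 and 7, and in TPM units 9 and 8. Their summed levels were 1022 to 1287 CPM on SFA and 1338 to 1514 CPM on n6 for endothelium, and 767.3 to 930.6 and 983.4 to 1165 CPM for pericytes and smooth muscle, without overlap. The number of endothelial calls was 7 without SFA replicate 1 and 2 without SFA replicate 2 or 4, and the number of pericyte and smooth muscle calls was 2 without SFA replicate 2 or 3 or n6 replicate 2 or 3. T and NK cell markers summed to 32.79 to 39.66 CPM on SFA and 19.71 to 25.82 CPM on n6. The T cell receptor constant gene Trac was at 7.98, 11.9, 10.8 and 10.5 CPM on SFA and 5.27, 4.04, 4.25 and 2.82 CPM on n6 (log2 fold change -1.32, SE 0.169, adjusted p = 1.47e-05). Every n6 library was below every SFA library. Of the 16 markers 2, Trac among them, were called lower, a share near the 13.1% over all genes, with a median of -0.59. The number was 10 when the 8 libraries compared were fitted alone and 5 with DESeq2. In KO 4 of the 16 were higher and 1 lower, with a median of 0.64, and the WT minus KO difference was called for none of them. Skeletal muscle markers summed to 87.13 to 112.1 CPM on SFA and 74.73 to 137.1 CPM on n6, with 1 of 17 called, lower on n6. Of the 17, 15 had log2 fold changes above 0, and the list median was 1.35. Their mean log2 level was 1.86 and 2.40 in n6 replicates 2 and 3, 0.89 and 1.01 in n6 replicates 1 and 4, and 0.87 to 1.23 on SFA. Stromal progenitor markers summed to 2515 to 2552 CPM on SFA and 2542 to 2646 CPM on n6, with 1 of 12 called.

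Plasma cell markers summed to 31.39 to 36 CPM on SFA and 37.88 to 55.84 CPM on n6, without overlap, and 1 of 5 was called, Sdc1 (syndecan-1), which rose by 0.65 on the log2 scale (adjusted p = 0.000143). For this and the next lists, 11.6% of all tested genes were called higher and 13.1% lower. Of 6 neutrophil markers 2 were higher, among them S100a8, a calcium-binding alarmin, which rose by 0.72 (adjusted p = 0.000506). The other 4 had log2 fold changes below 0, none of them called. The list median was -0.10, and 0.39 without SFA replicate 3. The neutrophil sums overlapped at 8.237 to 10.59 CPM on SFA and 8.868 to 14.57 CPM on n6. Of 9 nerve and Schwann cell markers 2 were higher and 1 lower, and none was called higher when SFA replicate 2 or 3 or n6 replicate 1, 2 or 3 was left out. Of 11 B cell markers 2 were called lower, with a list median of -2.31. Cr2, a complement receptor among them, was at 0.159, 0.583, 4.87 and 0.206 CPM on SFA and 0.143, 0.017, 0.0544 and 0.0985 CPM on n6, high in SFA replicate 3 alone. Without SFA replicate 3 no B cell marker was called and the list median was -0.65. None was called without n6 replicate 2 or 3 either and 1 without n6 replicate 1, while 8 were called without SFA replicate 1 and 7 with DESeq2. The part of these cell types in the other results was not tested.

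**Figure D4:**
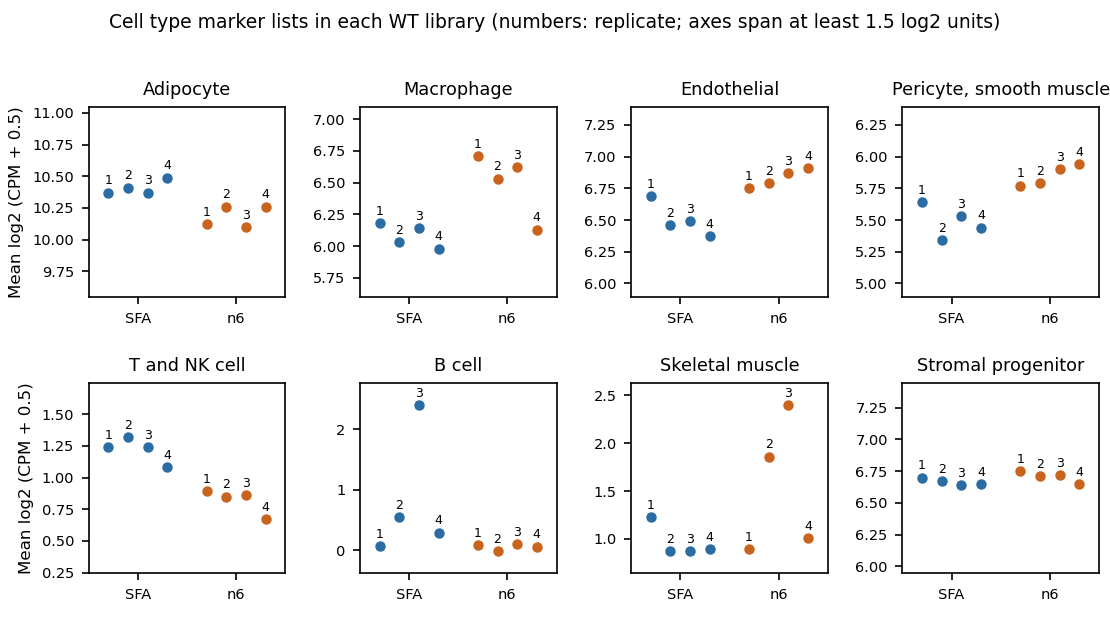
Mean log2 of CPM + 0.5 over the markers of each cell type (vertical axis) in each WT library on SFA and n6, numbered by replicate, on axes of at least 1.5 log2 units. The B cell panel shows SFA replicate 3 at 2.40 against 0.55 or less in the other libraries, and the macrophage panel shows n6 replicate 4 at 6.13 beside the SFA libraries at 5.98 to 6.18.

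Cell cycle genes rose as a group, with 19 of 22 called higher, none lower and a median of 0.47. Mki67, the proliferation marker, was at 40.3, 40.1, 45.7 and 34.2 CPM on SFA and 68.8, 65.1, 72.8 and 60.3 CPM on n6 (log2 fold change 0.74, SE 0.168, adjusted p = 0.00349). Top2a and the replication helicase subunit Mcm5 rose by 0.62 and 0.51 on the log2 scale (adjusted p = 0.00374 and 0.000115), and the replication clamp Pcna by 0.20 (adjusted p = 0.00121). Of the 19, 18 had no overlap, while over all tested genes, called or not, 24.9% had none. The mean log2 level of the list was 2.98, 2.98, 3.19 and 2.96 on SFA and 3.50, 3.41, 3.50 and 3.32 on n6, so that every n6 library, replicate 4 included, lay above every SFA library. Leaving out each library in turn gave 13 to 20 calls, the fewest without SFA replicate 4.

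Matrix genes were higher in 8 of 28 cases and lower in none, with a median of 0.18 (14 higher when the 8 libraries compared were fitted alone, and 16 in TPM units). Of all tested genes 11.6% were called higher on counts, and 5493 of 14401 in TPM units. Eln (elastin) was at 137, 124, 125 and 106 CPM on SFA and 164, 184, 192 and 189 CPM on n6 (log2 fold change 0.57, SE 0.137, adjusted p = 0.00508), with no overlap. The matrix count fell to 4 without SFA replicate 4 or n6 replicate 3, and to 5 without SFA replicate 2 or 3. Immediate early genes were higher in 9 of 20 cases and lower in 1, with a median of 0.26. Atf3 was at 13, 10.8, 15.5 and 12 CPM on SFA and 28.3, 22.5, 26.3 and 15.3 CPM on n6 (log2 fold change 0.85, SE 0.166, adjusted p = 0.000976), with n6 replicate 4 inside the SFA range (1.00 without it). Egr2 rose by 0.69 (adjusted p = 0.0103), a call lost without n6 replicate 1 (0.55). The immediate early count fell to 3 without SFA replicate 3, to 5 without SFA replicate 2, and to 4 without SFA replicate 4 or n6 replicate 1, 2 or 3, and was 4 with no filter on low counts. In 8 of the 9 called rises n6 replicate 4 was the lowest n6 library.

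Of 19 circadian clock genes 6 were lower and 2 higher, with a median of -0.11 (0.12 in TPM units, where 4 were higher). On counts 13.1% of all tested genes were lower and 11.6% higher, so the rises were near the general share. The sources used here give no time of day at collection. Nr1d1 (REV-ERB alpha) was at 148, 170.1, 152 and 185 CPM on SFA and 102, 95, 89.4 and 131 CPM on n6 (log2 fold change -0.65, SE 0.0941, adjusted p = 5.55e-05), and Dbp and Bhlhe41 fell by 0.84 and 0.78 on the log2 scale (adjusted p = 0.00103 and 0.00035). Npas2 and Cry1 rose by 1.16 and 0.32 (adjusted p = 0.00326 and 0.00253), and the call on Npas2 was lost on counts rebuilt from TPM (0.84, adjusted p = 0.0675). The falls of these repressors and outputs had no overlap, while n6 replicate 1 kept Npas2 within the SFA range.

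Of 15 genes of the glucocorticoid and fasting response 4 were higher and none lower, with a median of 0.35, and in TPM units 11 were higher, with a median of 0.51. The share called higher on counts over all tested genes was 11.6%. In TPM units 5493 of all 14401 tested genes were called higher. The metallothionein gene Mt2 was at 64.4, 40, 68.6 and 42.5 CPM on SFA and 140.2, 148, 71.9 and 63.3 CPM on n6 (log2 fold change 0.98, SE 0.289, adjusted p = 0.0188), a high level in n6 replicates 1 and 2 with overlap in the others. Its call was lost without SFA replicate 2 or 4 or n6 replicate 1 or 2 (0.76 to 0.88) and when the 8 libraries compared were fitted alone (adjusted p = 0.0891). The number of rises was 2 without SFA replicate 2 or 4 or without n6 replicate 1 or 2. Fkbp5, a classical glucocorticoid target, had a log2 fold change of 0.54 (adjusted p = 0.122), and was called higher in TPM units (0.74).

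Of 20 genes of insulin action and glucose use in fat cells 8 were lower and 1 higher, with a median of -0.20. Akt2, the kinase of insulin signalling, was at 420.5, 471, 431 and 471 CPM on SFA and 332, 310.3, 316 and 354 CPM on n6 (log2 fold change -0.45, SE 0.0496, adjusted p = 1.32e-06), with no overlap. Pfkfb3, which drives glycolysis, fell by 0.53 on the log2 scale (adjusted p = 5.93e-05). Without SFA replicate 4, 5 members were called lower, and in TPM units 5 were lower and 3 higher. Of 19 adipokines and related secreted proteins 4 were lower and 4 higher, against 13.1% and 11.6% of all tested genes. Lep, the gene of leptin, was at 4251, 3973, 4205 and 4110 CPM on SFA and 5333, 5297, 5112 and 4807 CPM on n6 (log2 fold change 0.31, SE 0.0763, adjusted p = 0.00485), and every n6 library was above every SFA library. Retn (resistin), Rbp4 (retinol binding protein) and Nrg4 (neuregulin 4) fell by 0.59, 0.87 and 0.73 (adjusted p = 3.71e-05, 1.19e-07 and 2.73e-05), each without overlap.

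In the remaining lists the medians lay between -0.17 and 0.06, and 24.7% of all tested genes were called. Interferon-stimulated genes had 2 of 22 lower and none higher, and ribosomal protein genes 5 of 44 lower and none higher. Lipid peroxidation defence had 7 of 20 lower and 3 higher, NRF2 targets 5 of 17 and 2, the unfolded protein response 5 of 26 and 3, and adipocyte expansion markers 1 of 11 and 2. In TPM units the balance turned, with 4 lower and 9 higher for peroxidation defence, 3 and 6 for NRF2 targets and 1 and 18 for the unfolded protein response. Over all 14401 genes tested on TPM the balance was likewise upward, with 527 lower and 5493 higher. On counts the rises of peroxidation defence numbered 1 without SFA replicate 3 or 4 or n6 replicate 1, 2 or 3, and its falls 4 without SFA replicate 4. The falls of the unfolded protein response numbered 3 without SFA replicate 3 or n6 replicate 3 and 2 without SFA replicate 4, and its rises ranged from 1 without SFA replicate 2 or 4 or n6 replicate 2 or 3 to 5 without SFA replicate 1 or n6 replicate 4.

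The same diets were compared in KO, with libraries that this comparison does not share. In KO 3474 genes (22.8%) differed, 1361 higher (8.92%) and 2113 lower (13.8%). Of the WT calls 1609 were called in KO in the same direction, which is 42.6% of the WT calls and 46.3% of the KO calls, and 17 were called in the opposite direction. Over the 3776 WT calls 90.9% had the same sign in KO, against 72.4% of all tested genes. The median ratio of the KO to the WT log2 fold change was 0.62 over the WT calls, and that of the WT to the KO log2 fold change was 0.65 over the KO calls, so that in each case the genotype that chose the genes had the larger differences. The lipogenic list had 16 of 20 lower in KO with a median of -0.53, and the cholesterol list had 23 of 25 lower with a median of -0.57. Oxidative phosphorylation had 12 of 43 lower with a median of -0.13, cell cycle none of 22 called with a median of 0.12, and macrophage markers 8 of 17 higher with a median of 0.31. The WT minus KO difference itself was called for 7 of the 20 lipogenic and 2 of the 25 cholesterol genes. It was called for 0 of the 43 oxidative phosphorylation genes, 1 of the 22 cell cycle genes and 0 of the 17 macrophage markers. The sign in KO was that in WT for 43 of the 43 and 17 of the 22.

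Lpcat3, the gene targeted in KO, was at a mean of 116.8 CPM on SFA and 69.6 CPM on n6 in WT, and at 75.4 and 49.0 CPM in KO. Most of its transcript level was therefore still present in the libraries labelled KO. Whether the counted reads come from the deleted part of the gene was not tested. Its diet difference in KO was -0.62 on the log2 scale, and the WT minus KO difference was -0.12 (adjusted p = 0.538).

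A direct test of the WT minus KO diet difference called 137 genes (0.898%), 66 with a positive and 71 with a negative difference. Of the 137 genes, 96 were called in WT and 80 in KO, and the diet difference was larger in size in WT in 81 and in KO in 56. Among the 96 it was smaller or reversed in KO in 91, and among the 80 smaller or reversed in WT in 61, counts that the choice of genes by one genotype largely sets. Acss2 changed by -1.63 in WT and -0.70 in KO (adjusted p of the difference = 0.000122), Scd1 by -1.35 and -0.56 (0.000531) and Insig1 by -1.30 and -0.51 (0.00155). Cidea had log2 fold changes of -1.50 in WT and 0.00 in KO (adjusted p of the difference = 0.0185). Ass1, which rose by 1.31 in WT, had a log2 fold change of 0.20 in KO (0.00295), and Hpgd had -0.44 and 0.13 (0.00209). Fdps and Lss, in contrast, changed by -0.88 and -0.87 and by -0.85 and -0.86, with adjusted p of the difference of 0.98 and 0.971.

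In 15 of the 137 genes the diet difference was called in both genotypes with opposite signs. The histone chaperone Asf1b was at 2.92, 2.95, 3.53 and 2.95 CPM on SFA and 4.37, 3.63, 4.32 and 4.16 CPM on n6 in WT and changed by 0.41 in WT and -0.71 in KO (adjusted p of the difference = 0.000269), and Map1a by 0.26 and -0.64 (7.52e-05). The WT call on Map1a was lost without SFA replicate 2 (0.21). Tlcd2 and Fads2 had lower fold changes in KO than in WT, with log2 fold changes of -0.77 in WT and -2.06 in KO for Tlcd2 (0.000658), and of -0.15, which was not called, and -0.83 for Fads2 (0.013). The number of genes in this test ranged from 51 without n6 replicate 2 to 345 without n6 replicate 4, and was 54 without n6 replicate 1, 70 without n6 replicate 3, and 55, 89 and 65 without SFA replicates 2, 3 and 4. It was 15 when libraries with many B cell or skeletal muscle transcripts, KO libraries included, were left out, and the differences of Insig1, Cidea, Ass1 and Fads2 were then no longer called.

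**Figure D5:**
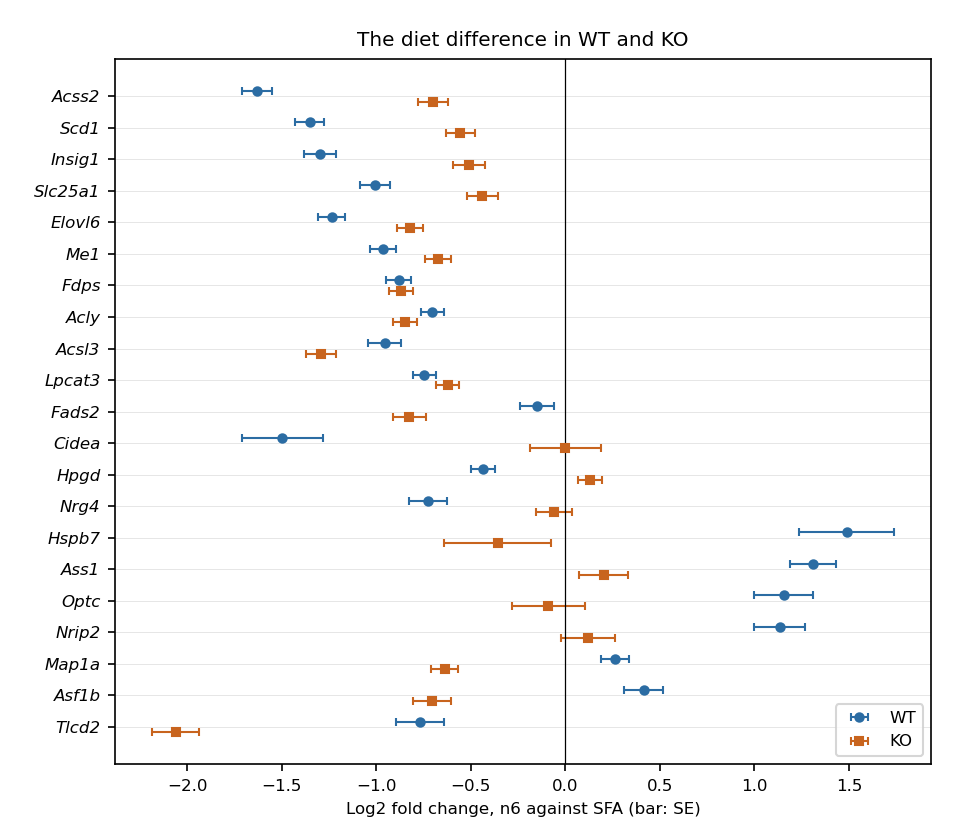
Log2 fold change of n6 against SFA in WT (circles) and KO (squares) for single genes, with the SE as the bar. Cidea and Ass1 lie far from 0 in WT (-1.50 and 1.31) and near 0 in KO (0.00 and 0.20), Fdps (-0.88 and -0.87) and Lpcat3 (-0.75 and -0.62) are below 0 in both, and Asf1b changes sign (0.41 and -0.71).

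The omega-3 fat gives a second reference within WT, which shares its SFA or its n6 libraries with the main comparison. Against SFA, n3 changed 22 of the tested genes (0.144%) at the same threshold (edgeR), with 2238 at an unadjusted p under 0.05. Against n3, n6 differed in 2813 genes (18.4%). Among the lipogenic genes Scd1 and Scd2 were the members called on n3, at -0.75 and -0.35 (adjusted p = 2.5e-05 and 0.0201), and the list median was -0.08. Acss2 was at -0.14, Insig1 at 0.01, Lpcat3 at -0.03, Agpat2 at -0.01 and Ptger3 at 0.06 on n3 against SFA, each with an adjusted p of 0.402 or more. Itgax was at -0.06 and Lep at -0.10 (adjusted p = 0.883 and 0.562).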

How the data were processed

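RNA of iWAT was measured by poly-A RNA sequencing, and per the labels' protocols libraries were sequenced with paired ends on an Illumina NovaSeq. Per the submitters' processing notes the tools were fastp 0.23.2 and Salmon (version not given) and the build mm10. The authors deposited 1 table of estimated counts and 1 of TPM, each with 35727 genes and 24 libraries, and 66.2% of the count values are whole. Estimated counts were rounded. The protocols describe no isolation of adipocytes, although the series title names mature adipocytes, and whole tissue is assumed here. Symbols were matched to GENCODE M21 (34884 genes) or RefSeq alone (351).

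edgeR 4.0.16 in R 4.3.3 (TMM scaling, filterByExpr with a minimum count of 10, robust quasi-likelihood fit) was run on all 24 libraries in 6 groups, with 18 residual degrees of freedom, and p-values were Benjamini-Hochberg adjusted over 15259 genes. The fit was tested on simulated data. limma 3.58.1 (log2 of TPM plus a pseudocount of 1 or 0.1, TPM of at least 0.5 in 4 libraries or no filter) and DESeq2 1.42.0 were alternatives. Libraries sharing a replicate number correlated little in their deviations and are not treated as paired. Promoter windows are RefSeq GRCm38.p6. Estimated counts of the 8 libraries of 46.25 to 55.44 M limit precision mainly for genes of a few CPM.

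The members, 30 gene lists and 16 marker lists were chosen with earlier results of these data known. Named were Lpcat3, Ucp1, Scd1, Fads1 and Fads2, the 12 largest rises and 12 largest falls and the 10 smallest p among called genes without overlap whose log2 CPM averaged 1 or more, up to 5 called members per list, and 6 genes of the WT minus KO test. Some of the genes this rule gives are not reported here. List members that were not called, and further members given for their role, were chosen after their values were seen.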

Additional observations from a re-analysis of the deposited data

Results flagged for a closer look

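In groups of 4, a library was marked where its gap to the nearest other was large for the group's range (Dixon's test at the 95% level). Chance marks about 1 group in 20, and 18 of 280 groups were marked. On n6, replicate 4 stood apart in Mlxipl (55.55 CPM), Pla2g2e (4.454), Adrb3 (114.8), Cidea (7.784), Saa3 (24.06) and Cxadr (1.636), and replicate 2 in Hmgcs1 (464.8) and Pla2g5 (9.18). On SFA, replicate 1 stood apart in Ndufs4 (55.78 CPM) and Ptgs1 (19.34), replicate 2 in Optc (1.241), and replicate 3 in Pla2g5 (3.286), Asf1b (3.529) and Cr2 (4.873). Of summed markers, B cell markers stood apart in SFA replicate 3 (55.77 CPM), skeletal muscle (112.1) and mesothelial (0.7017) markers in SFA replicate 4, and nerve and Schwann cell markers in n6 replicate 4 (275 CPM).

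For 24 named genes the diet difference differed between WT and KO by the interaction test (edgeR, adjusted p under 0.05). As the WT minus the KO log2 fold change, the lipid genes were Acss2 at -0.93, Scd1 at -0.80, Scd2 at -0.44, Elovl6 at -0.41, Slc25a1 at -0.57, Acacb at -0.47, Insig1 at -0.79, Agpat2 at -0.53, Cidea at -1.50 and Fads2 at 0.68. The eicosanoid genes were Ptger3 at -0.44, Ptgfr at -0.67 and Hpgd at -0.57. The others below 0 were mt-Nd2 at -0.42, Nrg4 at -0.67 and H2-Q10 at -0.79. Those above 0 were Pcna at 0.24, Asf1b at 1.12, Hspb7 at 1.85, Ass1 at 1.11, Optc at 1.25, Nrip2 at 1.02, Map1a at 0.90 and Tlcd2 at 1.29. Acss2, Scd1, Asf1b, Hpgd, Map1a and Tlcd2 were called in this test under all 19 other settings. Agpat2, Ass1, Cidea, Fads2, Insig1, Nrip2, Ptger3 and Slc25a1 were called under 18 of them, Optc under 17, Hspb7, Nrg4 and Scd2 under 14, H2-Q10 under 11, mt-Nd2 and Ptgfr under 10, Elovl6 under 7, and Acacb and Pcna under 4. The setting that ended the calls on Agpat2, Ass1, Cidea, Fads2, Insig1, Nrip2, Ptger3 and Slc25a1 left out the libraries with many B cell or skeletal muscle transcripts.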

How the results depend on the processing

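Each result was recomputed under 19 other settings. Of 2351 values of single genes, 2270 kept their direction and their side of the threshold, 55 were no longer called, 17 became called and 9 changed sign. The changes of sign were all in genes that were not called: Srebf2 at -0.04 on length-scaled TPM counts, Fads2 at 0.01 under each of the 3 TPM settings, and Tnf at 0.02 (TPM + 1, with or without the filter) and 0.05 (TPM + 0.1). With single libraries left out, Tnf ranged from -0.32 to 0.01 and Ptgs2 from -0.13 to 0.15. The WT minus KO differences of Fdps and Lss, which were not called, were 0 and -0.03 on length-scaled counts, -0.06 and -0.05 without SFA replicate 1, and 0.06 and 0.11 without SFA replicate 3. RLE scaling gave 3792 calls, DESeq2 4176, no filter on low counts 3239 and length-scaled counts 2956. TPM + 1 gave 6020 calls (5493 higher, 527 lower), TPM + 0.1 5881 (5342 and 539) and TPM + 1 without a filter 5093 higher and 489 lower, and the median of all genes was shifted upward by 0.148, 0.168 and 0.063. The 2-fold count was 53 with TPM + 1 and 51 without the filter. Under these 3 TPM settings 22, 22 and 21 oxidative phosphorylation genes and 14, 14 and 13 beta-oxidation genes were lower, and 15, 15 and 14 macrophage markers higher. Lipogenic genes lower numbered 15, 15 and 15, and cholesterol genes lower 16, 16 and 17. The WT minus KO test called 415 genes with DESeq2, 263 with TPM + 1 and 15 without libraries that held many B cell or skeletal muscle transcripts, which left 3028 calls in WT. The cause of these differences was not tested. With each library left out in turn the calls ranged from 2378 to 4145, those higher from 1052 to 1985, those lower from 1326 to 2167, the 2-fold calls from 114 to 233 and the WT minus KO calls from 51 to 345. With single libraries left out, lipogenic and cholesterol genes lower stayed at 17 and 21 in number, oxidative phosphorylation at 41 to 43 and beta-oxidation at 22 to 25. Cell cycle genes higher were then at 13 to 20 and macrophage markers at 7 to 13. With the replicate number as a block, 3770 genes were called (1796 higher, 1974 lower). Same-numbered libraries correlated at -0.019 to 0.111 in their deviations, and replicates 3 and 4 of SFA, but not 1 and 2, correlated best with their own number. Whether same-numbered libraries share more than a number cannot be told from these values.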

Other observations

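These genes were chosen after their values were seen. Cyp1a1, a cytochrome P450 induced by the aryl hydrocarbon receptor, was at 2.03, 1.11, 2.15 and 1.65 CPM in SFA replicates 1 to 4 and 0.0179, 0.0679, 0.0907 and 0.118 CPM on n6 (log2 fold change -4.53, SE 0.723, adjusted p = 0.000172, edgeR). The n6 libraries held 1, 4, 5 and 6 estimated counts and the SFA libraries 59 to 115, with no overlap. The diet difference in KO was -4.52 (adjusted p = 8e-05), and n3 against SFA in WT, which shares the SFA libraries, gave -2.75 (adjusted p = 0.065). Other targets of the same receptor, Cyp1b1 and Tiparp, had log2 fold changes of 0.01 and -0.10 (adjusted p = 0.936 and 0.242).

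The table holds a second row with the symbol of Nnt, the mitochondrial transhydrogenase, a gene that carries a deletion in the C57BL/6J substrain (the strain is not given in the sources used here). That row was above 0 in 3 of 4 SFA libraries, at 391.2, 357.3 and 507.3 estimated counts, and was listed at 0 in SFA replicate 1 and in all 4 n6 libraries. In the other groups it was above 0 in 1 of 4 (WT n3), 1 of 4 (KO SFA), 2 of 4 (KO n6) and 3 of 4 (KO n3) libraries. The main row of Nnt was above 0 in all 8 libraries, at 723.5 to 1065.7 estimated counts on SFA and 654.6 to 1260.9 on n6, and the groups overlapped.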
